A study of Mus musculus with 45 samples.

Results

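The genes that carry long-chain fatty acids from the blood into heart muscle and burn them in mitochondria were followed through mouse heart development. Their 39 members were listed by gene symbol and sorted by role, namely uptake, activation, the carnitine shuttle, beta oxidation, the lipid droplet and uncoupling. Of these, 36 were measured, out of 18193 genes in all. Acsl1 and Ucp2 had no probe set listed under their symbol and Cpt1b was listed on a probe set shared with other genes, so these 3 were not analysed here. Without Acsl1 the activation role held only the thioesterase genes Acot1, Acot2 and Acot13, whose enzymes undo that step. No activating enzyme of that role was thus measured. The study set 45 arrays of 3 per group on the course from stem cells to the adult heart. It began with the embryonic stem cell line R1 (ESC) and went on in CD1 mice, with whole embryos of embryonic day 7.5 (E7.5) and the heart tubes of E8.5. Ventricles, dissected apart into left and right, came from E9.5 and E12.5 embryos, from E14.5 and from E18.5, from pups on day 3 of life after birth, and from adults. The mice were wild type and no group was treated. A replicate pooled 30 to 50 embryos or hearts at the stages until E9.5, 10 to 20 at E12.5 and E14.5 and 3 to 5 at E18.5, and held 1 heart at day 3 and in the adult, so the spread at the late stages is that between single animals. Hearts of day 3 and adult mice were frozen and pulverised before RNA was taken, a step that the earlier stages did not share.

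Long-chain fatty acids are freed from blood lipoproteins by lipoprotein lipase on the capillary wall, taken up through membrane proteins such as CD36 and activated to acyl-CoA. The carnitine shuttle then moves the acyl groups across the inner mitochondrial membrane, where beta oxidation shortens them step by step and passes electrons to the respiratory chain, while any surplus is stored as triglyceride in lipid droplets. The fetal heart is known to rely largely on glucose and lactate, and the adult heart mostly on fatty acids.

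All values were log2 expression values made by the authors with RMA, so a difference of 1 is a 2-fold difference. Each replicate value from E9.5 on is the mean of the left and the right ventricle of that number, and n is 3 at every stage. A gene was called where the Benjamini-Hochberg adjusted p of limma, over all 18193 genes, was under 0.05, and differences are given with the standard error (SE) of that fit. Array medians lay between 5.35 and 5.46, and the number of arrays limits the precision. The mean of 8 heart muscle markers was 5.80 in ESC and 5.69 in E7.5 embryos, 11.98 in the heart tube and 13.8 in both adult ventricles, so ESC and E7.5 embryos stand apart from heart tissue in every comparison with them. In 7 arrays a list of another tissue exceeded its level in the remaining arrays of that group by more than 1.5 log2 units. These were liver and visceral endoderm genes in 1 array each at E8.5, E18.5 and in each ventricle at E14.5, red cell genes in 1 array at E7.5 and again in that of the E14.5 left ventricle, and atrial muscle genes in 1 array of each adult ventricle. Left out together, they moved the members called per stage step by at most 3. Fewer cells of a type and less RNA per cell cannot be told apart in such bulk tissue.

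Between E9.5 and adult ventricles, 35 of 36 members were higher and 0 were lower, where 41.6% of all genes were higher and 32.9% lower. The median difference of the members was 2.44, against 0.13 over all genes. At least 2-fold higher were 31 members, where 12.3% of all genes were. The member that was not called was the thioesterase gene Acot1 (0.32 ± 0.17, adjusted p = 0.0892). Gpihbp1 (6.08), Plin5 (5.90) and Cd36 (5.65) rose the most, followed by Dgat2 (3.85), Acadvl (3.84), Pnpla2 (3.23), Slc27a1 (3.17) and Acacb (3.03). Replicates of the adult and of E9.5 overlapped in Acot1 and Angptl4, and overlap was not counted over all genes.

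The rise came in several steps rather than at once. From E8.5 to E9.5, 22 members were higher and 2 lower, where 12.8% of all genes were higher and 14.1% lower. From E9.5 to E12.5, 27 were higher and 0 lower (20.1% and 18% of all genes). The step to E14.5 was smaller, with 18 higher and 0 lower (7.18% and 6.09%), though 7 were called in left ventricles alone and 22 in right ventricles alone. From E14.5 to E18.5 there were 27 higher and 2 lower (11.8% and 18.7%). Across birth, from E18.5 to day 3, 31 were higher and 0 lower (9.94% and 10.3%), and 14 of them rose at least 2-fold, where 0.841% of all genes did. The median member differences of these 5 steps were 0.51, 0.54, 0.28, 0.55 and 0.76, and the medians over all genes lay between -0.02 and 0.04. From day 3 to the adult the members divided, with 14 higher and 9 lower (22.3% and 26.4%) and a median of 0.15, against 0.03 over all genes. Neighbouring steps share the samples of the stage between them, so they are not independent of each other.

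**Figure D1:**
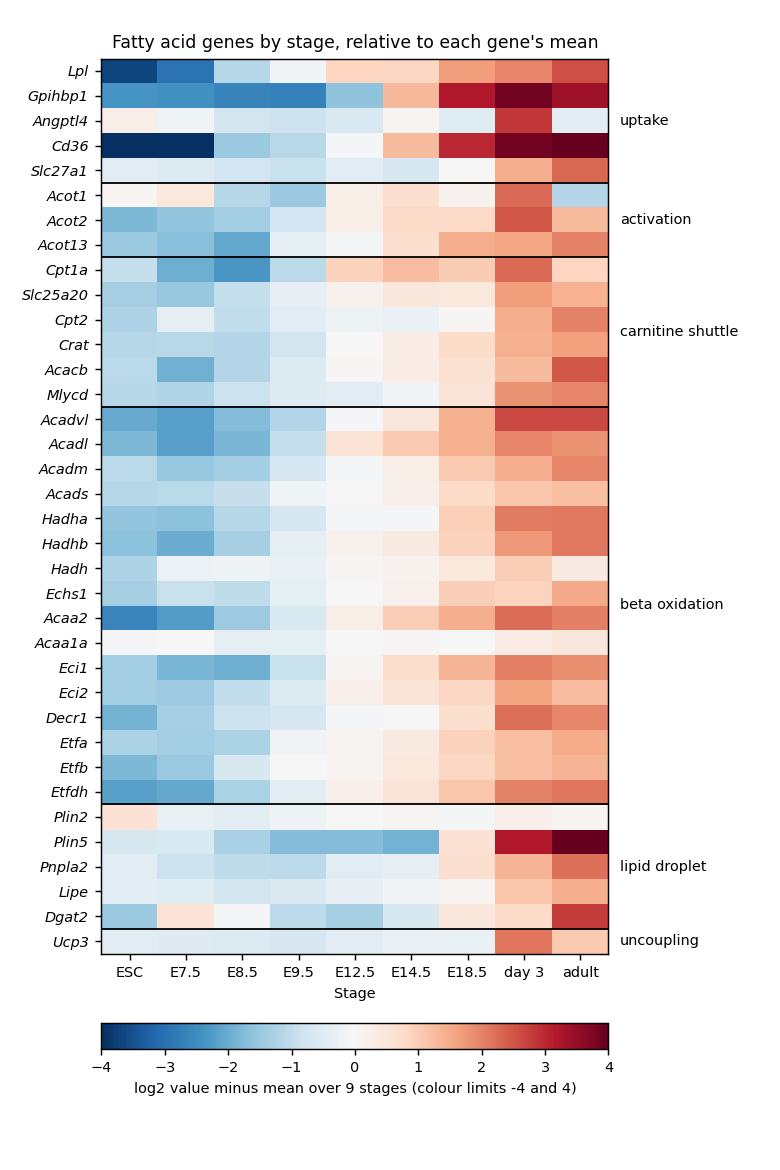
Each row is 1 of the 36 measured members, sorted by role, and each column 1 of the 9 stages. Rows of the activation role are all thioesterase genes. Colour gives the stage mean (n = 3) minus the mean of that gene over all stages in log2 units, with values beyond -4 and 4 drawn at the limits. Most rows pass from blue before E12.5 to red after birth, and Plin2 hardly changes colour. Day 3 holds the highest of the 9 stage means in 13 rows, among them Angptl4, Acot1, Acot2, Cpt1a and Ucp3.

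From ESC to whole embryos at E7.5 the members showed no common direction. Of them 8 were higher and 10 lower, where 24.3% and 25.2% of all genes were. From E7.5 to the heart tube more rose than fell, with 16 higher and 7 lower (20.4% and 28.1%). Cd36 stood at 3.52, 4.03 and 3.64 in ESC, at 4.48, 3.78 and 3.68 at E7.5 and at 7.40, 7.21 and 7.40 at E8.5, a difference of 3.36 ± 0.15 (adjusted p = 5.76e-15). The heart tube replicates lay far above those of the whole embryo. Whole embryos and dissected hearts differ in tissue as well as in age, and the 2 cannot be told apart.

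From E9.5 on the stage means can be set on the path of each gene to its adult level. Over the 35 members that were called higher in the adult, the median share of the log2 rise was 21.8% at E12.5, 35.7% at E14.5, 62.7% at E18.5 and 93.1% at day 3. Shares differed widely between members. At E18.5 Cpt2 had covered 20.3% of its rise, Slc27a1 27.6% and Plin5 39.2%, against 86.8% for Acadl and 97.0% for Gpihbp1. The midpoint between the lowest and the highest stage mean from E8.5 on was first reached at E12.5 by 6 members (Acadl, Acot13, Cpt1a, Eci1, Lpl and Plin2), at E14.5 by 13, at E18.5 by 7 and at day 3 by 10 (Acacb, Angptl4, Cpt2, Decr1, Dgat2, Lipe, Mlycd, Plin5, Slc27a1 and Ucp3). The adult held the highest stage mean from E8.5 on for 22 members and day 3 for the other 14.

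**Figure D2:**
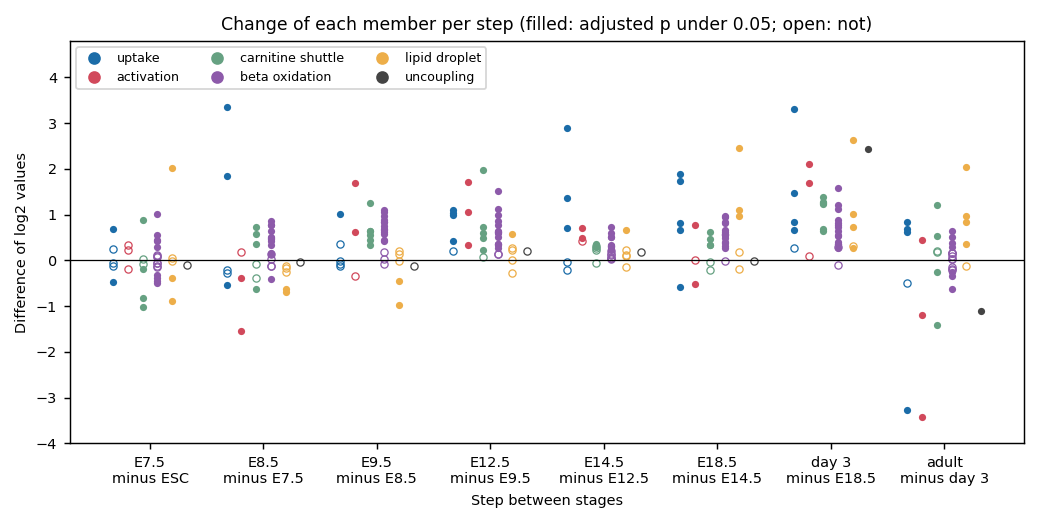
Each point is the change of 1 member, in log2 units, in 1 of the 8 steps between stages, coloured by role. The colour of the activation role holds thioesterase genes only. Filled points passed an adjusted p of 0.05. Points lie mostly above 0 in the 5 steps from E9.5 minus E8.5 to day 3 minus E18.5, and spread to both sides in the last step, where Angptl4 and Acot1 fall below -3.

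Promoters of the members were read because most of the members were higher in the adult than at E9.5, and because this pathway is known to be switched on by nuclear receptors that bind variants of the hexamer AGGTCA. RefSeq windows (GRCm38.p6, 250 bases before to 50 after a gene's start) were matched by symbol for 28 of the 36 measured members, 32 windows in all. Searched on both strands with no mismatch, AGGTCA was found in 10 of the 32 windows (31.3%), of Acacb, Acadm, Acadvl, Cd36, Cpt1a, Echs1, Plin2, Plin5 and Ucp3, and in 16.3% of all 32851 windows in the table. The longer site TCAAGGTCA of the estrogen-related receptors, which contains the hexamer, was found in 0 of 32 and in 0.423% of all windows. The direct repeat of the hexamer with 1 base between, the classic site of the PPAR family, was found in 0 of 32 and in 0.0396% of all. A match is a description of letters in the window and shows no binding. The windows of 4 of the 9 members with the hexamer are given as examples, in lower case with each hexamer in capitals. They do not stand for all members that changed much, since the windows of Pnpla2 and Slc27a1 held no hexamer. Plin5 was higher in the adult than at day 3 and Acadvl was not called between them, whereas Ucp3 and Cpt1a were lower in the adult.
Plin5, chr17:56117499-56117798, minus strand: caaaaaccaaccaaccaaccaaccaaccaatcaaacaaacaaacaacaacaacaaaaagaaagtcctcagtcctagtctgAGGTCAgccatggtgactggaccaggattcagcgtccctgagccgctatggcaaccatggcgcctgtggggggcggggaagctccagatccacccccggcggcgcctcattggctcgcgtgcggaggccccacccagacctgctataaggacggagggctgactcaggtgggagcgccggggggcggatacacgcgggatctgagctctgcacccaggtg
Acadvl, chr11:70015379-70015678, minus strand: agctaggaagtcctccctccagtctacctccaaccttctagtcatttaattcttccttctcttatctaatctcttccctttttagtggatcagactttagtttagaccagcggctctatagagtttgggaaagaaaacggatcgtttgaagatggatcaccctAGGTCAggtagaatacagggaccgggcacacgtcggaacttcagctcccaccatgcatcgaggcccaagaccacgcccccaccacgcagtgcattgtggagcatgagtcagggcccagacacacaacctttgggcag
Ucp3, chr7:100472741-100473040, plus strand: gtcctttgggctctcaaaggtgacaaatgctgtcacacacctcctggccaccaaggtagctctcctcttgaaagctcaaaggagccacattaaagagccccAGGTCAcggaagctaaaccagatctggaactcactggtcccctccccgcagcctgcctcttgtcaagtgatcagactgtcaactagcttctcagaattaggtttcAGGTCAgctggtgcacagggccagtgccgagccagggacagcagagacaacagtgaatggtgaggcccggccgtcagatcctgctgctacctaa
Cpt1a, chr19:3323051-3323350, plus strand: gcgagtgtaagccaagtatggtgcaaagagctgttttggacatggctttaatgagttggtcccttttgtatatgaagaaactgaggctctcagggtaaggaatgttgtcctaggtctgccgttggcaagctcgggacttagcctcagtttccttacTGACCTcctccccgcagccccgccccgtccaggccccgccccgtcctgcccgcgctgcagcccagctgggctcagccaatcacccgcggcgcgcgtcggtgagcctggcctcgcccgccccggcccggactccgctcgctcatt
Counted from the start of the gene, the hexamer began at -170 in the Plin5 window shown, at -87 in Acadvl, and at -149 and again at -44 in Ucp3. In Cpt1a it began at -94 and lies on the other strand, so that it reads TGACCT as printed. A further Plin5 window in the table, chr17:56117249-56117548, for another start of the gene, holds the hexamer at 13 bases after that start and is not shown.

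All 5 uptake genes were higher in the adult than at E9.5, where 41.6% of all genes were, but they rose at different stages. Gpihbp1, whose protein anchors lipoprotein lipase on capillary endothelium, was at 5.06, 5.38 and 5.03 at E9.5 and at 6.62, 5.97 and 6.19 at E12.5. It then reached 9.38, 9.09 and 9.02 at E14.5, a step of 2.90 ± 0.20 (adjusted p = 2.13e-09), the largest of any member there. Values of 11.02, 11.19 and 10.95 followed at E18.5, 11.73, 11.72 and 11.72 at day 3, and 11.48, 11.00 and 11.23 in the adult. Its replicates at E14.5 lay above all those before and below all those after, and the adult was not called against day 3 (-0.49 ± 0.20, adjusted p = 0.0515).

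Cd36, the long-chain fatty acid transporter, rose in each step from E9.5 to the adult. It stood at 7.76, 7.60 and 7.74 at E9.5, at 8.71, 8.86 and 8.63 at E12.5, and at 10.14, 10.07 and 10.06 at E14.5. At E18.5 it was at 11.68, 11.82 and 11.98, at day 3 at 12.62, 12.66 and 12.72, and in the adult at 13.50, 13.23 and 13.31. No 2 of these stages overlapped, and the adult was 50.1-fold above E9.5 (adjusted p = 5.91e-20). Other probe sets of Cd36 rose by 5.35 and 7.18 log2 units from E9.5 to the adult, against 5.65 for the one used. Lpl, the lipase itself, was an early riser, from 11.04 ± 0.24 (SD) at E8.5 to 12.04 ± 0.13 at E9.5 and 13.03 ± 0.08 at E12.5. It did not pass the test across birth (0.28 ± 0.10, adjusted p = 0.0525), and its adult mean of 14.74 ± 0.01 lies near the highest value of any probe set (15.2), where an array has little room to show a further rise. A dimmer probe set of Lpl, with a mean of 10.5 over the arrays, rose by 3.96 from E9.5 to the adult, against 2.69 for the one used.

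Slc27a1, which encodes the fatty acid transport protein FATP1, made most of its rise after E14.5. At E9.5 it was at 5.36, 5.50 and 5.48, at E12.5 at 5.87, 5.81 and 5.93, and at E14.5 at 5.68, 5.61 and 5.65. The small difference between E12.5 and E9.5 (0.42 ± 0.15, adjusted p = 0.0326) was not called without the 7 arrays named above (adjusted p = 0.0779) or in either ventricle alone, and E14.5 was not called against E12.5. It reached 6.33, 6.19 and 6.43 at E18.5, 7.80, 7.71 and 7.85 at day 3 and 8.56, 8.14 and 9.16 in the adult. Its largest step was that across birth (1.47 ± 0.15, adjusted p = 3.03e-07). Adult replicates spread over about 1 log2 unit but all lay above day 3. Another probe set of Slc27a1, of nearly equal mean level (6.41 against 6.44), rose by 1.84 from E9.5 to the adult, against 3.17 here.

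Angptl4, whose protein inhibits lipoprotein lipase and is induced by fatty acids, showed a short peak after birth. It was at 7.23, 7.40 and 7.22 at E18.5, at 10.42, 10.64 and 10.73 at day 3 and at 7.71, 7.35 and 6.95 in the adult. The step across birth of 3.31 ± 0.14 was 9.95-fold (adjusted p = 1.64e-13) and the largest of any member, and by the adult stage it fell by 3.26 ± 0.14 (adjusted p = 1.41e-15). Adult replicates overlapped those of E9.5 (7.04, 6.98 and 6.80), and the small difference between these stages (0.40 ± 0.14, adjusted p = 0.0112) lost its call when some single arrays were left out (adjusted p up to 0.138). A dimmer probe set of Angptl4 was called in the opposite direction between ESC and E7.5 (0.23, against -0.47 here).

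The plots of replicate values show these genes beside members of the other roles.

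**Figure D3:**
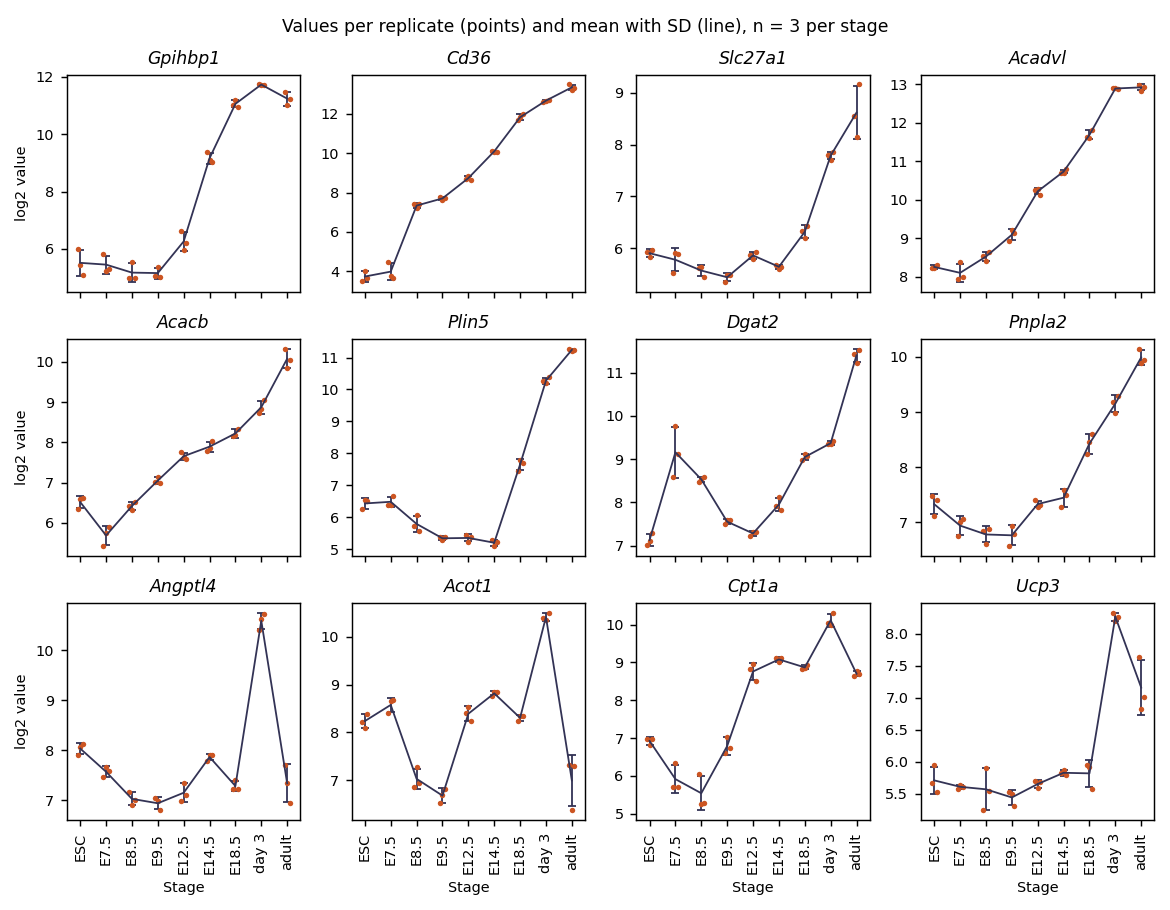
Points are the 3 replicate values per stage of 12 members on the log2 scale, and the line joins stage means with SD bars; the vertical axes differ between panels. Gpihbp1 climbs from about E12.5 on and Plin5 and Slc27a1 mainly after E14.5, and Angptl4, Acot1, Cpt1a and Ucp3 (bottom row) have their highest points at day 3.

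The acyl-CoA thioesterases, which split acyl-CoA back into fatty acid and coenzyme A, differed from each other. Acot13 rose first, from 8.83, 8.94 and 8.66 at E8.5 to 10.60, 10.24 and 10.67 at E9.5 (1.69 ± 0.09, adjusted p = 7.01e-12), the largest change of any member in that step. It reached 12.74, 12.92 and 12.90 in the adult, and every adult replicate lay above all earlier ones.

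Acot1, the cytosolic member, was at 6.51, 6.70 and 6.81 at E9.5 and rose to 8.40, 8.54 and 8.23 at E12.5 (1.72 ± 0.17, adjusted p = 2.54e-08). From 8.23, 8.35 and 8.33 at E18.5 it rose to 10.39, 10.35 and 10.50 at day 3, and the adult was back at 7.32, 6.37 and 7.29. That fall of 3.42 ± 0.17, or 10.7-fold, was the largest decrease of any member in any step (adjusted p = 3.08e-14). Its mitochondrial counterpart Acot2 rose by 1.69 ± 0.12 across birth (adjusted p = 3.37e-10) and was 2.30-fold lower in the adult (adjusted p = 6.25e-09), remaining 4.13-fold above E9.5. Acot1 and Acot2 are close paralogs, and how far their probes tell them apart was not tested.

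In the carnitine shuttle, 6 of 6 measured members were higher at E9.5 than at E8.5, at day 3 than at E18.5, and in the adult than at E9.5. Of all genes, 12.8%, 9.94% and 41.6% were higher in these comparisons. Cpt1a, the form of the rate-limiting enzyme that is typical of liver and fetal heart, was at 6.06, 5.26 and 5.29 at E8.5, 6.60, 7.04 and 6.73 at E9.5, and 8.82, 8.96 and 8.503 at E12.5. The steps were 1.25 ± 0.18 (adjusted p = 1.02e-05) and 1.98 ± 0.18 (adjusted p = 6.61e-09), the second being the largest of any member between E9.5 and E12.5. It passed the test in neither step from then to E18.5 (8.82, 8.86 and 8.93). Day 3 was higher at 10.05, 9.99 and 10.32 and the adult lower again at 8.64, 8.78 and 8.69 (-1.42 ± 0.18, adjusted p = 3.79e-07), with no overlap between these stages. Its adult replicates lay among or below those of E12.5 to E18.5.

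The other shuttle genes kept most of what they gained. Cpt2, the enzyme of the inner membrane, stood at 9.86 ± 0.09 (SD) at E18.5, 11.25 ± 0.07 at day 3 and 11.79 ± 0.10 in the adult, a step of 1.39 ± 0.09 across birth (adjusted p = 6.86e-11). Slc25a20, the carnitine-acylcarnitine carrier, rose by 1.24 ± 0.07 at birth and then fell by 0.26 ± 0.07. Crat, which exchanges short acyl groups with carnitine, rose from 8.32 ± 0.10 at E9.5 to 10.68 ± 0.16.

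Acacb and Mlycd encode enzymes that make and break down malonyl-CoA, the inhibitor of CPT1, and both rose. Acacb was at 7.02, 7.15 and 6.99 at E9.5, at 8.73, 8.84 and 9.06 at day 3 and at 10.33, 9.86 and 10.05 in the adult. Its largest step was the last (1.204 ± 0.121, adjusted p = 1.26e-08), and its adult replicates lay above those of every earlier stage. Mlycd made its largest step at birth (1.28 ± 0.09, adjusted p = 4.07e-10), to 9.64 ± 0.08 (SD), and was not called between day 3 and the adult (0.17 ± 0.09).

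All 16 beta oxidation genes were higher in the adult than at E9.5, by 0.67 (Hadh) to 3.84 (Acadvl), with a median of 2.51. Of all genes 41.6% were higher in that comparison. Per step, 13 were higher at E9.5, 14 at E12.5, 10 at E14.5, 15 at E18.5 and 14 at day 3, and 0 were lower in these 5 steps. Of all genes 12.8%, 20.1%, 7.18%, 11.8% and 9.94% were higher in them, and 14.1%, 18%, 6.09%, 18.7% and 10.3% lower. Acadvl, the dehydrogenase for very long chains that opens the cycle, was at 8.93, 9.21 and 9.13 at E9.5, 10.26, 10.27 and 10.13 at E12.5 and 10.70, 10.70 and 10.79 at E14.5. It then reached 11.63, 11.61 and 11.82 at E18.5 and 12.90, 12.90 and 12.88 at day 3, and stayed at 12.99, 12.84 and 12.94 in the adult. Stages up to day 3 did not overlap, whereas day 3 lay within the adult replicates, and its adult level was 14.3-fold that of E9.5 (adjusted p = 1.80e-20).

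Among the other acyl-CoA dehydrogenases, Acadl, the long-chain form, made its largest step from E9.5 to E12.5 (1.51 ± 0.08, adjusted p = 6.86e-13), from 10.89 ± 0.13 (SD) to 12.40 ± 0.08. Acadm, the medium-chain form, rose to 14.07 ± 0.02 and Acads, the short-chain form, to 10.99 ± 0.07 in the adult. The 2 subunits of the trifunctional protein, Hadha and Hadhb, rose by 2.78 ± 0.11 and 2.46 ± 0.09 between E9.5 and the adult. A dimmer probe set of Hadhb was lower at E12.5 than at E9.5 (-0.49), against 0.51 for the brighter one. The thiolase gene Acaa2 (2.64 ± 0.12) and the isomerase genes Eci1 (2.78 ± 0.08) and Eci2 (1.79 ± 0.07) rose as well, as did Echs1 (1.87 ± 0.09), the short-chain hydratase.

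Etfa, Etfb and Etfdh, which carry the electrons of the dehydrogenases to the respiratory chain, rose by 1.64 ± 0.06, 1.37 ± 0.07 and 2.56 ± 0.09. Decr1, needed for unsaturated fatty acids, took its largest step at birth (1.59 ± 0.09, adjusted p = 7.64e-12). The smallest gains were those of Hadh, already at 12.70 ± 0.05 (SD) at E9.5, and of the peroxisomal thiolase Acaa1a, which moved from 7.48 ± 0.06 to 8.32 ± 0.24. Acaa1a was the 1 member called in neither of the last 2 steps. From day 3 to the adult 4 genes of beta oxidation were higher (Acadm, Hadhb, Echs1 and Etfa), 3 were lower (Hadh, Eci2 and Decr1) and 9 were not called. These shares of 16 lie near those of all genes in that step (22.3% higher and 26.4% lower).

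The 5 lipid droplet genes were all higher in the adult than at E9.5, by 0.28 (Plin2) to 5.90 (Plin5), and differed in when they rose. Of all genes 41.6% were higher in that comparison. Up to E14.5, Plin5, the perilipin that tethers droplets to mitochondria in oxidative muscle, had fallen, from 5.73, 6.07 and 5.57 at E8.5 to 5.37, 5.27 and 5.38 at E9.5 (adjusted p = 0.00401, and 0.0843 without the 7 arrays named above), and stood at 5.27, 5.10 and 5.23 at E14.5. It rose to 7.46, 7.79 and 7.71 at E18.5 (2.45 ± 0.11, adjusted p = 3.45e-13), to 10.26, 10.19 and 10.37 at day 3 (2.62 ± 0.11, adjusted p = 1.89e-13) and to 11.28, 11.20 and 11.25 in the adult. These last 4 stages did not overlap, and RMA understates changes from a level as low as that at E14.5.

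Dgat2, which makes triglyceride, and Pnpla2, the lipase that begins its breakdown, were both higher in the adult than at E9.5, by different courses. Dgat2 was at 8.48, 8.54 and 8.58 at E8.5 and fell to 7.49, 7.59 and 7.59 at E9.5. It was at 9.34, 9.34 and 9.43 at day 3 and at 11.44, 11.24 and 11.54 in the adult, a last step of 2.03 ± 0.17 (adjusted p = 3.86e-10) after one across birth that was not called (0.32 ± 0.17, adjusted p = 0.192). Day 3 and the adult lay far apart.

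Pnpla2 was at 6.57, 6.93 and 6.79 at E9.5, 8.24, 8.45 and 8.60 at E18.5, 9.18, 8.99 and 9.29 at day 3 and 10.15, 9.89 and 9.94 in the adult. Its replicates at these stages did not overlap, and its largest step was that from E14.5 to E18.5 (0.98). Lipe, the hormone-sensitive lipase, rose from 4.70 ± 0.08 (SD) at E9.5 to 6.40 ± 0.27 at day 3 and 6.75 ± 0.15 in the adult. Plin2, the perilipin of most cell types, moved little from E8.5 on (9.68 ± 0.09 to 10.29 ± 0.02) and had its highest mean, 10.68 ± 0.12, in ESC.

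Ucp3, the uncoupling protein of muscle mitochondria, is given per replicate although the choice was made after its values were seen. It was at 5.96, 5.92 and 5.58 at E18.5, at 8.33, 8.2035 and 8.26 at day 3 and at 7.64, 6.83 and 7.01 in the adult. It rose 5.44-fold at birth (2.44 ± 0.16, adjusted p = 1.90e-10) and fell by 1.11 ± 0.16 (adjusted p = 3.54e-06). The 3 stages did not overlap.

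The members were sorted by their calls in the last 2 steps. Across birth 9.94% of all genes were higher and 10.3% lower, and from day 3 to the adult 22.3% and 26.4%. Higher at birth and higher again in the adult were 10 (Acacb, Acadm, Cd36, Cpt2, Etfa, Hadhb, Lipe, Plin5, Pnpla2 and Slc27a1). Higher at birth and then lower were 9 (Acot1, Acot2, Angptl4, Cpt1a, Decr1, Eci2, Hadh, Slc25a20 and Ucp3), of which Acot1, Angptl4, Cpt1a, Acot2 and Ucp3 fell at least 2-fold. Another 12 were higher at birth and not called afterwards, and 4 (Acot13, Dgat2, Echs1 and Lpl) were called higher in the last step alone of the 2. The 9 of 36 members that fell after day 3 lie near the share of all genes that did. How many of all genes follow each of these patterns was not counted. In a further fit, the RMA values of each array were also scaled to the mean of 16 housekeeping genes. That mean lay at 11.6 in both ventricles at day 3 and at 11.4 in both adult ventricles. With this scaling the median difference of all genes between day 3 and the adult shifted by 0.189. In that step 21 members were higher and 6 lower. Higher calls then made up 77.8% of the called members, against 60.9%. The 3 that were no longer called were Slc25a20, Eci2 and Decr1.

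Markers of other cells moved along with some members, and their part in these results was not tested. The mean of 10 endothelial markers lay at 8.12 to 8.61 over the E9.5 arrays, 9.09 to 9.39 at E14.5, 9.75 to 9.89 at day 3 and 9.44 to 9.65 in the adult, with 6 of 10 higher and 1 lower in the adult than at E9.5. The mean of 8 fibroblast markers went from 7.54 to 8.02 over the E9.5 arrays to 9.96 to 10.82 at E12.5, 11.73 to 11.94 at day 3 and 10.90 to 12.27 in the adult, and 8 of 8 were higher at E12.5 than at E9.5. That of 10 leukocyte markers was at 5.50 to 5.88 at E9.5, 7.18 to 7.43 at E12.5, 7.62 to 7.89 at day 3 and 8.90 to 9.65 in the adult, with 10 of 10 higher at E12.5 and 9 of 10 higher in the adult than at day 3. The mean of 7 red cell markers fell, from 10.34 to 10.69 at E9.5 to 5.96 to 6.25 at day 3 and 5.67 to 6.09 in the adult, where 5 of 7 were lower than at E9.5. The mean of 7 measured fat markers lay at 5.30 to 5.43 at day 3 and at 5.56 to 7.12 in the adult, where 4 were higher and 1 lower. Of all genes 20.1% were higher at E12.5 than at E9.5, and 41.6% were higher and 32.9% lower in the adult than at E9.5. From day 3 to the adult 22.3% of all genes were higher and 26.4% lower. Adipoq, the adiponectin gene of fat cells, ranged from 2.97 to 3.41 over the 6 day 3 arrays and from 3.67 to 9.40, with a median of 6.57, over the 6 adult arrays. Over the same 6 adult arrays Dgat2 ranged from 11.08 to 11.63 and Pnpla2 from 9.76 to 10.26, and their relation to Adipoq was not tested.

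The wider pathway, given by gene lists that hold no member, moved less evenly. Its counts between E9.5 and the adult stand against 41.6% of all genes higher and 32.9% lower. In that comparison 11 of 12 peroxisomal oxidation genes were higher and 0 lower, with Ech1, a dienoyl-CoA isomerase, gaining 4.19. Of 12 other lipid droplet genes 10 were higher and 1 lower (Plin4 at 4.85, Hilpda at -1.01), and of 9 other mitochondrial dehydrogenases and hydratases 8 were higher and 1 lower (Acad11 at 3.85, Acad9 at -0.58). Other synthetases and transport proteins gave 8 higher and 4 lower of 13, with Acss1 at 4.46 and Acsl3 at -2.62. Carnitine supply gave 5 and 2 of 8 (Slc25a29 at 2.89, Cpt1c at -0.87) and the other thioesterases 4 and 0 of 6 (Acot11 at 1.84). In fatty acid synthesis the balance was the other way, with 3 of 10 higher and 7 lower (Scd1 at 2.63, Elovl6 at -4.13). Across birth 5 of 12 peroxisomal, 6 of 12 droplet, 1 of 9 dehydrogenase and 2 of 10 synthesis genes were higher, where 9.94% of all genes were, so the last 2 lists lie near the share of all genes.

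Left and right ventricle were set against each other in a fit of all 45 arrays. No member was called at E9.5, E12.5, E18.5, day 3 or in the adult by limma, where 3.5%, 1.26%, 4.95%, 0.0055% and 0.0165% of all genes were, and at an unadjusted p of 0.05 there were 8, 3, 7, 0 and 1. At that unadjusted threshold 12.7%, 8.01%, 19.4%, 3.19% and 6.19% of all genes passed. At E14.5, 6 members were lower in the left ventricle, where 4.27% of all genes were lower. These were Decr1 (-0.47 ± 0.10), Echs1 (-0.34 ± 0.11), Slc25a20 (-0.28 ± 0.08), Etfa (-0.25 ± 0.07), Eci2 (-0.25 ± 0.08) and Etfb (-0.23 ± 0.07). The count went down to 1, 2 or 3 when any single array of that stage other than left ventricle array 1 was left out, and to 1 without left ventricle array 2 or right ventricle array 1. Those 2 arrays stand high in liver and visceral endoderm genes, whose mean ran from 5.62 to 8.82 over the left and from 5.23 to 6.98 over the right ventricle arrays of E14.5. Fibroblast markers separated the ventricles there without overlap, at 11.34 to 11.50 on the left and 10.81 to 10.86 on the right, with 3 of 8 called higher on the left. Red cell markers lay at 9.05 to 10.92 on the left and 8.41 to 9.20 on the right, with 2 of 7 called higher, and the part of these lists in the 6 calls was not tested. How many of all genes were called higher on the left at E14.5 was not counted.

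Decr1 was the 1 member whose ventricle difference depended on the stage (limma F-test, adjusted p = 0.0417), where 5.85% of all genes were called. Its left ventricles at E14.5 were at 10.35, 10.34 and 10.29 and its right ventricles at 10.77, 10.79 and 10.82, without overlap. At E9.5 the left minus right difference was 0.01, at E12.5 0.14, at E18.5 -0.07, at day 3 -0.02 and in the adult 0.05. The call was lost when left and right of the same number were treated as a block, and without the 7 arrays named above. Averaged over the 6 stages, Angptl4 was the 1 member called, lower on the left by 0.26 ± 0.08 (adjusted p = 0.0467, where 2.97% of all genes were called), and the call was lost in 26 of the 36 fits that left out 1 array. At E12.5 its left ventricles were at 6.67, 7.07 and 6.90 and its right ventricles at 7.29, 7.63 and 7.32, without overlap, whereas in the adult 7.41, 6.89 and 7.11 on the left overlapped 8.01, 7.81 and 6.79 on the right.

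**Figure D4:**
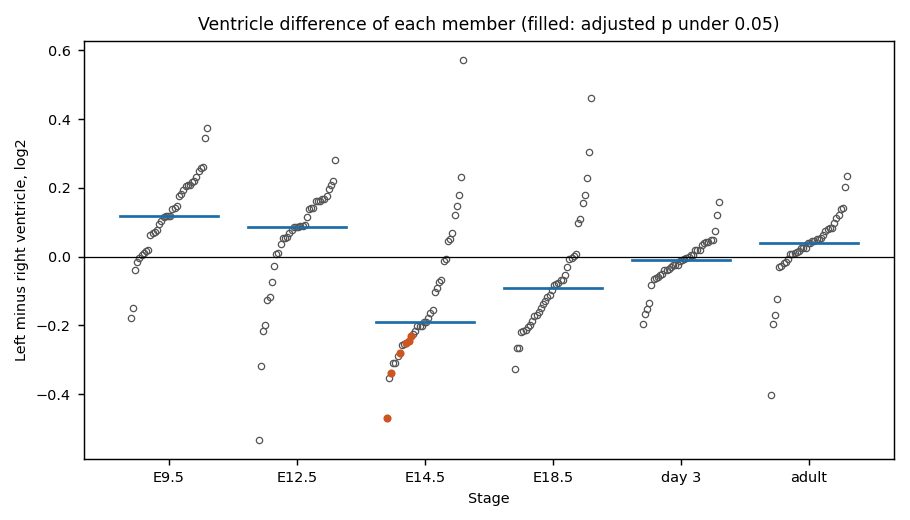
Each point is the left minus right difference of 1 member at 1 of 6 stages in log2 units, and the bar is the median of the 36 members. Filled points passed an adjusted p of 0.05, which 6 did at E14.5, all below 0 and led by Decr1 at -0.47.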

How the data were processed

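Expression was measured on 45 Affymetrix arrays, 3 in each of 15 groups, assigned by the labels. The deposited values were log2 values, which the authors had computed for each probe set by RMA (background correction, quantile normalization and probe summary), per the submitters' processing notes; the version is not given in the sources used here. Quantile normalization removes a change shared by most genes, and RMA compresses differences of dim genes.

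There were 45101 probe sets, including 64 controls, and 0 pairs of identical arrays. Of the probe sets, 34945 had 1 gene symbol in the platform annotation, 932 had several and were not used, and 9160 were unnamed. The Entrez gene identifiers of 34741 matched RefSeq (GRCm38.p6). Each of 18193 genes was represented by the brightest of its probe sets on average over the 45 arrays.

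Tests were two-sided in limma 3.58.1 (R 4.3.3; lmFit, eBayes) with Benjamini-Hochberg adjustment over all genes and a threshold of 0.05. For stages, the left and right arrays that bear the same number were averaged, giving 27 values in 9 stages fitted together. The ventricle fit used 45 arrays in 15 groups. The labels call the replicates biological but do not say that equal numbers share hearts, and deviations of same-numbered ventricles correlated above 0.1 in all 3 pairs at E12.5 alone (0.271, 0.321 and 0.369). The fits were tested on simulated data.

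The members and lists were chosen with earlier results of these data known. Replicate values are given for the 8 members with the largest called difference between adult and E9.5, the 2 largest called changes per step from E8.5 on, and members called in the mean or stage-dependent ventricle difference. All members are named. Alternatives tried were eBayes with trend and robust settings, fits of the compared groups alone, a minimum of 6.80 (the median gene value) in at least 3 arrays, the mean of all probe sets of a gene, housekeeping scaling, single ventricles, a replicate block, each array left out in turn, and the fit without 7 arrays marked by other tissues. Plots were drawn with Matplotlib 3.10.9 and tables handled with pandas 2.3.3 on Python 3.11.15.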

Additional observations from a re-analysis of the deposited data

Results flagged for a closer look

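The ventricle difference of Decr1, the reductase used for unsaturated fatty acids, differed across the 6 ventricle stages (limma F-test over the 18193 genes, adjusted p = 0.0417). Decr1 was the 1 member of 36 called by this test, where 5.85% of all genes were called. The difference lay at -0.47 at E14.5, left below right without overlap in the 3 arrays of each, and between -0.07 and 0.14 at the other 5 stages. The call was lost with the replicate block, without the 7 arrays that stand high in genes of another tissue, with the compared groups alone, and in 19 of the 36 fits that left out 1 array.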

How the results depend on the processing

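The members called per stage step kept their count within 1.5 times under the alternatives, with 1 exception. From E12.5 to E14.5, 18 members were called, 22 with housekeeping scaling or in right ventricles alone, but 7 in left ventricles alone. Leaving out 1 array gave 17 to 19 calls for E7.5 against ESC, 21 to 24 for E8.5, 24 to 25 for E9.5, 25 to 29 for E12.5, 16 to 20 for E14.5, 27 to 29 for E18.5, 30 to 33 for day 3, 22 to 26 for the adult against day 3 and 35 to 36 against E9.5.

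Ventricle calls were few and less stable. At E14.5 the 6 calls became 2 with the compared groups alone, 3 with the replicate block, 1 without the 7 marked arrays and 1 to 7 with 1 array left out. The stage-dependent call became 2 with trended robust eBayes, 0 with the compared groups alone, 0 with the block, 0 without marked arrays and 0 to 6 with 1 array left out (6 without E18.5 left ventricle array 3). The call in the mean difference became 0 with the compared groups alone, 0 with the mean of probe sets and 0 to 1 with 1 array left out. Without marked arrays 1 member was called at E12.5 and 1 in the adult. Leaving out 1 array gave 0 to 1 at E9.5 (1 without right ventricle array 2), 0 to 4 at E18.5 (4 without left ventricle array 3) and 0 to 1 in the adult (1 without right ventricle array 3). The causes were not tested.

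Of the members called in the stage comparisons and in the mean ventricle difference, 0 reversed. Calls were lost in 74 of 2454 fits with 1 array left out, 21 of 163 in left and 7 of 163 in right ventricles alone, 14 of 229 with the compared groups alone, 12 of 229 without marked arrays, 12 of 229 with the mean of probe sets and 5 of 229 with housekeeping scaling. Among these the replicate block changed 2 of 229 (Acads and Etfa, E8.5 against E7.5), and trended robust eBayes 0. The filter left 11180 genes and 35 members, without Lipe, and changed 0 of 226. The planned contrast of Cpt1b with Cpt1a was not run, since Cpt1b had no probe set of its own in the table used here.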
